A study of Mus musculus with 2 samples.

Results

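R-spondins are secreted proteins that strengthen WNT signalling, and the 8 genes described here encode 3 of these ligands, 3 of their receptors and the 2 membrane ubiquitin ligases through which they act. They are Rspo1, Rspo2, Rspo3, Lgr4, Lgr5, Lgr6, Znrf3 and Rnf43. They were taken by name from the annotation of a 2-colour mouse array, which names 31870 genes or other transcripts on 39429 probes and holds 1 probe for each of the 8. The array compared ureters of Rbpj-cKO embryos with ureters of control embryos at E18.5. In the Rbpj-cKO group (NMRI strain, Tbx18(cre/+);Rbpj(fl/fl)) cre recombinase acts on 2 floxed alleles of Rbpj in cells that make Tbx18, a gene of the ureteric mesenchyme. Cells outside the Tbx18 lineage, such as the urothelium, keep Rbpj in this design, and the Rbpj-cKO embryos also carry a cre at 1 Tbx18 allele. The control group (NMRI, Rbpj(fl/?)) carries at least 1 floxed Rbpj allele and no cre in its labels. There were 2 arrays, 1 with RNA of male and 1 with RNA of female embryos, each with Rbpj-cKO RNA against control RNA of the same sex. Rbpj-cKO RNA was in the red channel on the male array and in the green channel on the female array, so that sex, dye and array cannot be told apart. The number of embryos behind each RNA is not in the labels. The p-values below rest on the spread between 2 arrays, pooled in large part over all tested probes.

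As background, an R-spondin binds an LGR receptor and ZNRF3 or RNF43 together at the cell surface. ZNRF3 and RNF43 otherwise tag Frizzled receptors and LRP6 for removal from the membrane, and R-spondin takes the ligases away, which leaves more WNT receptor in place. Rnf43, Znrf3, Lgr5 and Axin2 are themselves widely known as genes that WNT signalling through beta-catenin induces. In the fetal ureter, WNT ligands of the urothelium act on the neighbouring mesenchyme, and Rspo1 is also known as a gene of mesothelium and of the developing gonad.

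Every value for a gene below rests on 1 spot per array, which carried a single 60-base oligonucleotide. For the 4 genes whose mean ratios below lay farthest from 0, the last 30 bases of the probe are shown, 5′ to 3′. They come from the deposited scanner files, and no letters are in capitals because no shorter stretch was singled out.
Rspo1: ggaaactgcttaaaggtttatttcaaatta
Rspo2: ttggcaggttctaattgcattatttccctg
Lgr5: ccagaatttgcttttctactgggctcaaaa
Rnf43: gcactatgttgaaaaaatgtatttatttgc
The 8 probes had between 35% and 55% G and C. No other probe on the array had the same sequence as any of them. Over the 28 pairs of these probes, the longest run of letters shared on either strand was 13 bases, between Rspo3 and Lgr6, so that the 3 ligands were read by unlike sequences. Each lies in 1 unbroken block of the genome on mm9, and its place within exons was not analysed here. The 3 ligand probes are at chr4:124686270-124686329 (Rspo1, plus strand), chr15:42852727-42852786 (Rspo2, minus strand) and chr10:29172930-29172989 (Rspo3, minus strand). The receptor probes are at chr2:109853567-109853626 (Lgr4, plus strand), chr10:114887403-114887462 (Lgr5, minus strand) and chr1:136883782-136883841 (Lgr6, minus strand). The ligase probes are at chr11:5180918-5180977 (Znrf3, minus strand) and chr11:87548958-87549017 (Rnf43, plus strand).

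By channel, 66.8% to 71.1% of probe spots stood well above background, and 0 were saturated. Of the 8 genes, 7 were well above background in all 4 channels, and Lgr6 in none. A filter on dim probes kept those 7 genes among 26224 probes. Ratios are log2 of Rbpj-cKO over control. The arrays differed widely: 58.6% of all tested probes had ratios of opposite sign on the male and the female array, and over all tested probes the ratios of both arrays had a Pearson correlation of -0.18, given as a description across probes that are not independent. Probes printed 10 times on each array gave the error within an array. The median SD of their log2 ratios was 0.05 on the male array against 0.14 for the female (399 probes), so single ratios on the female array are less precise. Rbpj, the targeted gene, was lower in the Rbpj-cKO channel of both arrays at its brighter probe (-1.58 and -0.93, mean -1.25, limma adjusted p = 0.0236). Its dimmer probe had -0.42 and -1.12 (adjusted p = 0.422). Whether either probe lies in the deleted part was not analysed here. The call for the brighter Rbpj probe held under 4 of 10 other settings, with adjusted p from 0.0011 to 1.00. Markers of the labelled tissue were present: 13 of 13 urothelial and 11 of 11 smooth muscle markers passed the filter, as did 20989 of all 31870 genes. The filter also kept 10 of 10 mesothelial and 6 of 6 nephron progenitor markers, so passing it does not single out the labelled tissue.

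None of the 7 genes passed the test between Rbpj-cKO and control ureters. By limma with Benjamini-Hochberg adjustment over 26224 probes, 0 of 7 passed the threshold of 0.05, where 0.16% of all tested probes did (0.0534% higher and 0.107% lower in Rbpj-cKO), and the lowest adjusted p of the 7 was 0.645 (Lgr5). At an unadjusted p under 0.05 there were 3 of them, Rspo1, Rspo2 and Lgr5, against 3.44% of all tested probes. The same 3 genes were the ones with a ratio of at least 1.5-fold on 1 array, which 10.2% of all tested probes reached. In each of the 3 the large ratio came from a single array, and 0 of 7 reached 1.5-fold on both, whether with like signs (0.568% of all tested probes) or in opposite directions (0.995%). Of the 7, Lgr5 and Rnf43 had ratios above 0 on both arrays (20.7% of all tested probes), Rspo2 and Lgr4 had ratios below 0 on both (20.7%), and Rspo1, Rspo3 and Znrf3 had opposite signs (58.6%). The median of the 7 mean ratios was 0.03, beside 0.01 over all genes tested.

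**Figure D1:**
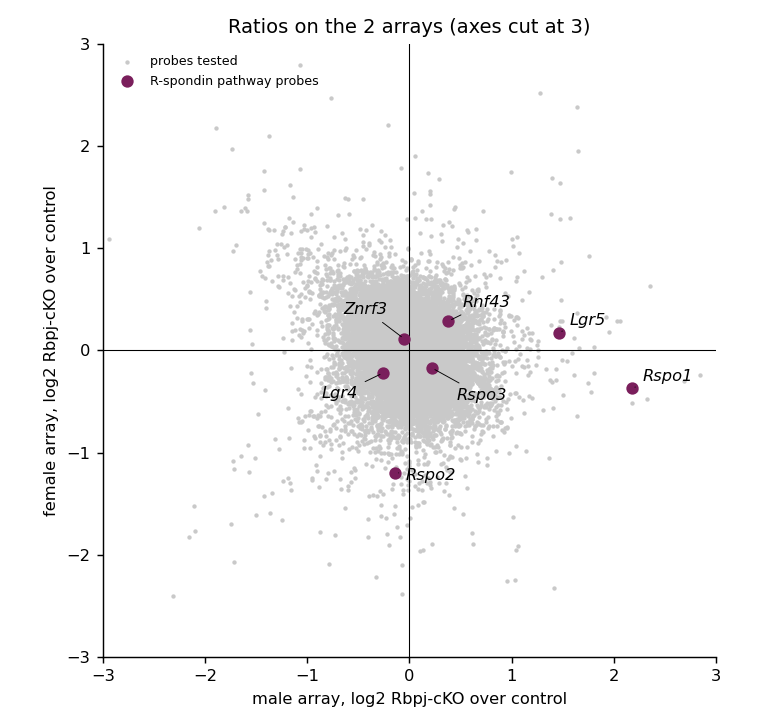
Log2 ratio of Rbpj-cKO over control on the male array (horizontal axis) against the female array (vertical axis) for the probes tested (grey) and the 7 genes above background (purple), with 7 probes outside the axes. Rspo1 and Lgr5 lie far to the right at 2.17 and 1.46, and Rspo2 lies low at -1.20, each near 0 on the other axis or, for Rspo1, below it, while the other 4 genes lie near the origin.

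Rspo1, the ligand best known from sex determination of the ovary, had the widest gap between the arrays. Its level after normalization was 1587 fluorescence units in the male control channel, 7165 in the male Rbpj-cKO channel, 3369 in the female control channel and 2606 in the female Rbpj-cKO channel. The male Rbpj-cKO channel was the highest of the 4 and the male control channel the lowest, so the groups overlapped. The log2 ratio was 2.17 on the male array, a 4.51-fold higher level in Rbpj-cKO, and -0.37 on the female array, a 1.29-fold lower level. The mean was 0.90 (SD 1.80, n = 2; limma adjusted p = 1.00). Limma drew the spread of this probe towards that of all probes and used a standard error of 0.38. With it the 95% interval of the mean ran from 0.10 to 1.70, above 0 although the arrays had opposite signs. Probes of similar brightness that were printed repeatedly had a spot SD of 0.04 (male array) and 0.15 (female array). Both ratios, and the gap of 2.55 between them, were larger than this SD. With the processed signals of the scanner software the ratios were 2.28 (male) and -0.22 (female). That software's own error for the spot was 0.29 (male) and 0.21 (female) in log2, so its female ratio was about the size of its error. A wider gap was found for 0.156% of all tested probes.

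Rspo2, a ligand that limb and lung development depend on, was the lowest of the 7 genes in mean ratio. Its level was 452 units in the male control, 410 in the male Rbpj-cKO, 559 in the female control and 244 in the female Rbpj-cKO channel. Both Rbpj-cKO channels lay below both control channels, and the female Rbpj-cKO channel stood lowest. The log2 ratio was -0.14 for males and -1.20 for females, the latter a 2.29-fold lower level, with a mean of -0.67 (SD 0.75, n = 2; limma adjusted p = 0.909). The spot SD at this brightness was 0.06 and 0.15, so the female ratio stood clear of the error within its array. A gap between arrays wider than that of Rspo2 (1.05) was found for 3.67% of all tested probes. Its signal was between 4.79 and 12.5 times the local background, and its female ratio moved with the processing. That ratio was -1.42 with a normexp offset of 0 and -1.71 from the scanner software's own processed signals.

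Rspo3, a ligand required for vessels of the placenta, had like levels in all 4 channels. They were 4504 units in the male control, 5240 in the male Rbpj-cKO, 5153 in the female control and 4577 in the female Rbpj-cKO channel, and the groups overlapped. The log2 ratios were 0.22 (male) and -0.17 (female), with a mean of 0.02 (limma 95% interval -0.41 to 0.46, adjusted p = 1.00). The sign of this mean turned with the processing. On the female array the ratio was close in size to the spot SD of 0.15. Rspo4, the remaining R-spondin, was not well above background.

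**Figure D2:**
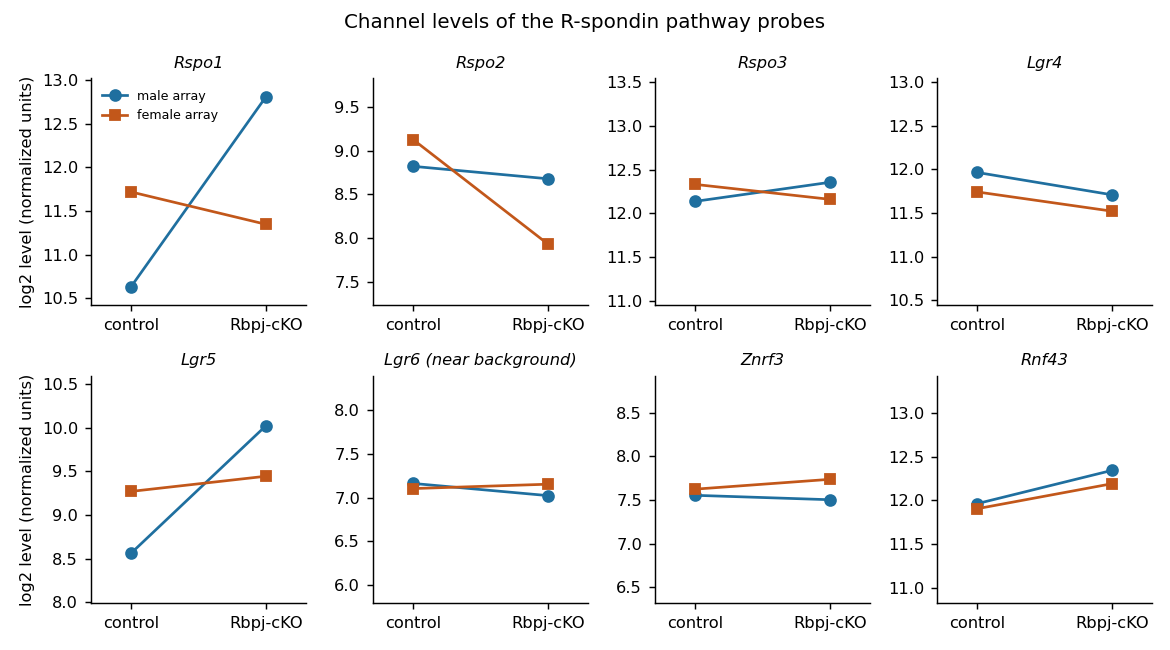
Log2 level after normalization of each of the 8 probes in the control and the Rbpj-cKO channel of the male array (blue circles) and the female array (orange squares), with lines joining channels of 1 array and panels of equal height. The lines cross for Rspo1, Rspo2, Rspo3 and Lgr5, run side by side for Lgr4 and Rnf43, and are close to flat for Znrf3 and for Lgr6, which was near background.

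Among the receptors, Lgr5, a marker of epithelial stem cells in the gut and a WNT-induced gene, had the largest ratio. Its level was 378 units in the male control, 1039 in the male Rbpj-cKO, 617 in the female control and 696 in the female Rbpj-cKO channel. Both Rbpj-cKO channels lay above both control channels, with the male control channel lowest and the male Rbpj-cKO channel highest. The log2 ratio was 1.46 on the male array (2.75-fold higher) and 0.17 on the female array (1.13-fold higher), with a mean of 0.82 (SD 0.91, n = 2; limma adjusted p = 0.645). The spot SD at this brightness was 0.06 (male) and 0.16 (female), so the female ratio was about the size of the error within that array. With the processed signals of the scanner software the ratios were 1.97 (male) and 0.03 (female). The gap of 1.29 between the arrays was passed by 1.83% of all tested probes.

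Lgr4, a widely expressed LGR receptor, had small ratios below 0 on both arrays. Its level was 3997 units in the male control, 3347 in the male Rbpj-cKO, 3424 in the female control and 2939 in the female Rbpj-cKO channel. Each Rbpj-cKO channel was below both control channels. The log2 ratios were -0.26 and -0.22, the closest match between the arrays among the 7 genes (mean -0.24, SD 0.03, n = 2; limma adjusted p = 1.00). The mean was larger than the SD of its own pair of values, but the 95% interval from limma's pooled spread, -0.66 to 0.19, included 0. The spot SD was 0.04 (male) and 0.15 (female). With the processed signals of the scanner software the female ratio was -0.02.

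Lgr6, the last of the receptors, was not well above background in any channel, and no ratio is given for it. Its spot was between 1.47 and 2.65 times the local background. A transcript at this level was not detectable here, which does not show that it is absent.

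The ubiquitin ligase Rnf43 had ratios above 0 of like size on both arrays. Its level was 3995 units in the male control, 5202 in the male Rbpj-cKO, 3837 in the female control and 4679 in the female Rbpj-cKO channel. Both Rbpj-cKO channels were above both control channels. The log2 ratios were 0.38 (male) and 0.29 (female), a mean of 1.26-fold (log2 mean 0.33, SD 0.07, n = 2; limma 95% interval -0.09 to 0.76, adjusted p = 1.00). The spot SD was 0.05 (male) and 0.15 (female), so each ratio was larger than the error within its array, but 7.46% of all tested probes had a mean farther from 0.

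Znrf3, the paired ligase, was dim and nearly even. Its level was 188 units in the male control, 181 in the male Rbpj-cKO, 197 in the female control and 213 in the female Rbpj-cKO channel, at 2.25 to 4.02 times the local background. The groups overlapped. The log2 ratios of -0.05 and 0.11 were within or below the spot SD of 0.08 and 0.15, and the mean of 0.03 (limma 95% interval -0.40 to 0.46, adjusted p = 1.00) changed sign with the processing. Across the 7 genes, the levels of the 2 groups did not overlap for 4, namely Rspo2, Lgr4, Lgr5 and Rnf43, where 27.1% of all tested probes, counted in either direction, had levels that did not overlap.

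**Figure D3:**
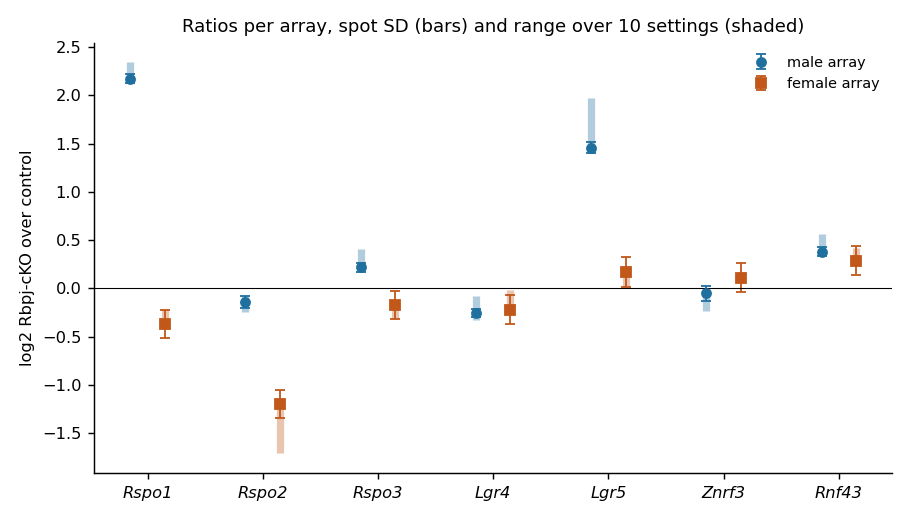
Log2 ratio of Rbpj-cKO over control for each of the 7 genes on the male (blue circles) and the female array (orange squares). Error bars are the median SD over the spots of repeatedly printed probes of similar brightness, and shaded bars span the 10 other settings. The male ratios of Rspo1 and Lgr5 and the female ratio of Rspo2 stay far from 0. The ranges of Rspo2, Lgr4, Lgr5 and Rnf43 keep the same side of 0 on both arrays. Those of Lgr4 and Lgr5 come as near to 0 as -0.02 and 0.03 on the female array.

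The other genes of the WNT pathway were read from lists, with the brightest probe per gene, and 0 of their 70 measured genes passed the limma test, where 0.181% of all genes did. The target genes of beta-catenin stood at a median of 0.35 (0.33 on the male, 0.20 on the female array), beside 0.01 over all 20989 genes. Of 10 measured targets, 9 were above 0 on both arrays and Ccnd1, a cell cycle gene, was below 0 on both, where 21.7% and 19.7% of all genes were. With median centring in place of loess, 8 of the 10 were above 0 on both. Axin2, the negative feedback gene most often used to read this pathway, had 0.57 and 0.36 (mean 0.46, SD 0.14, n = 2). Dkk1, a secreted WNT inhibitor, had the highest mean, 0.60 (0.61 and 0.60), and Ccnd1 the lowest, -0.29. Dkk1 was dim and not well above background in the female control channel, so its control level was measured on 1 of 2 arrays and it passed the filter through its Rbpj-cKO channels. Among the 9 targets well above background in all 4 channels, 8 were above 0 on both arrays, with a median of 0.34, and Sp5, a transcription factor, was the highest (1.07 and 0.04, mean 0.56). The lowest adjusted p of the 10 was 0.774 (Dkk1). Second probes of Nkd1 and Tnfrsf19 had opposite signs on the arrays (-0.07 and 0.52, and -0.09 and 0.32). Rnf43 and Znrf3 lay within the range of these targets on both arrays, and Znrf3 was near 0. That range included 0, from -0.38 to 1.07 on the male and from -0.19 to 0.60 on the female array. Lgr5 lay above it on the male array (1.46) and within it on the female array (0.17).

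The 15 measured ligands had a median of 0.09, with Wnt6, made by epithelia, at 0.59 (0.94 and 0.23) and Wnt10b at -0.27. The 14 Frizzled and other WNT receptors, among them the Frizzled genes and Lrp6 whose proteins ZNRF3 and RNF43 remove, had a median of 0.05, with Fzd10 at 0.58 and Fzd9 at -0.30 (-0.64 and 0.04). The 18 intracellular components had a median of -0.03 and were even, from Gsk3a at 0.20 to Csnk1a1 at -0.20. The 10 secreted antagonists and their receptors had a median of 0.21 (0.16 on the male, 0.06 on the female array). Among them Sostdc1, an inhibitor of WNT and BMP ligands, had 0.95 (1.12 and 0.77, limma adjusted p = 0.12) and 0.99 with a second probe, and Dkk2 had -0.44. Of the proteoglycans linked to R-spondin and WNT ligands, Sdc4 had 1.11 (male) and 0.11 (female), and Gpc3 had a mean of -0.24.

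**Figure D4:**
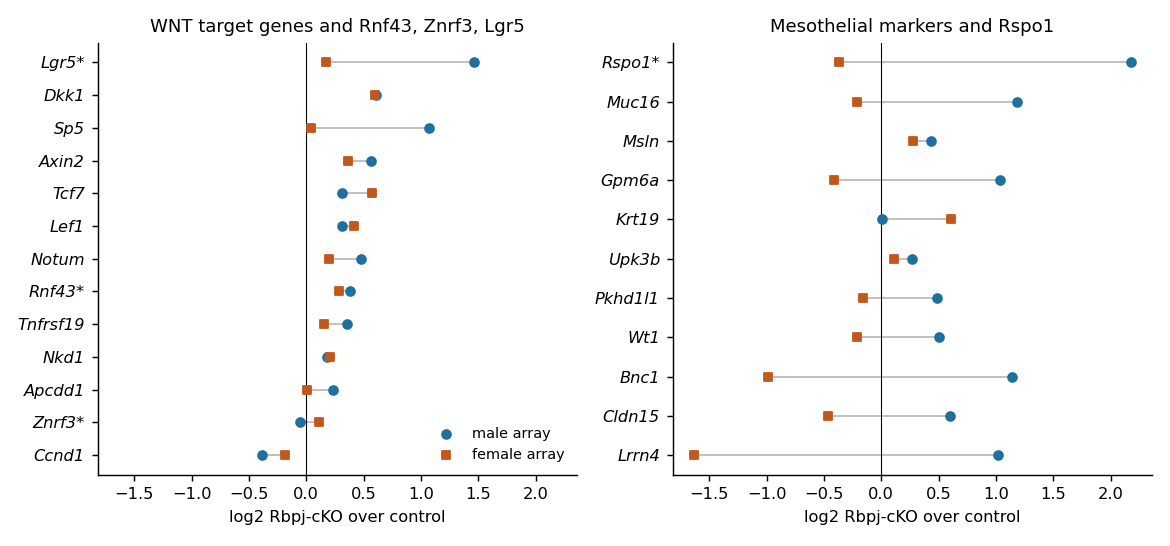
Log2 ratio of Rbpj-cKO over control on the male (blue circles) and the female array (orange squares) for WNT target genes with Rnf43, Znrf3 and Lgr5 (left) and for mesothelial markers with Rspo1 (right); asterisks mark R-spondin pathway genes. On the left 9 of 10 targets lie above 0 on both arrays, as do 21.7% of all genes. On the right 7 of 10 markers, like Rspo1, lie above 0 on the male and below 0 on the female array, as do 29.3% of all genes.

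Mesothelium is the outer lining in which Rspo1 is known to be made. For most of its markers the ratio was higher on the male than on the female array, as for Rspo1. In whole ureters fewer cells of a type and less RNA per cell cannot be told apart. All 10 markers passed the filter, with medians of 0.55 (male) and -0.21 (female), beside 0.01 on each array over all genes tested. All 10 were above 0 on the male array (0.01 to 1.18) and 7 of them below 0 on the female array (-1.63 to 0.61), a pair of signs that 29.3% of all genes had. The latter were 8 of 10 with processed signals and 9 of 10 with median centring. Muc16 had the highest mean (1.18 and -0.21) and Lrrn4 the lowest (1.01 and -1.63). The mean log2 level of the 10 markers was 11.08 in the male control, 11.74 in the male Rbpj-cKO, 11.59 in the female control and 11.28 in the female Rbpj-cKO channel, the same order of channels as for Rspo1. The 15 measured WNT ligands had that order too, at 9.80, 10.08, 9.84 and 9.81, with medians of 0.26 (male) and -0.08 (female). How many of all genes share the order was not counted. For the mesothelial markers the log2 of the summed level was 17.41, 17.53, 17.23 and 17.69 in the same channels and did not follow that order. Krt19, the brightest of the 10, made up most of that sum, at 17.02, 17.03, 16.72 and 17.33. The ratios of Krt19 were 0.01 (male) and 0.61 (female). None of these markers passed the limma test, and their part in the Rspo1 ratios was not tested.

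The other cell type lists are given by their male and female medians. Urothelial markers had 0.31 and 0.28 and smooth muscle markers -0.56 and -0.20. On both arrays 11 of 13 urothelial genes were above 0 and 9 of 11 muscle genes below 0, where 21.7% and 19.7% of all genes were. Krt5 was the highest urothelial marker (0.55, and 0.25 with a second probe). Trp63 was the lowest (mean 0.01), with opposite signs on the arrays (-0.41 and 0.43). Among the muscle markers, Smtn had 0.16 and Synpo2 -0.89. Gonad and genital duct markers, a tissue rich in Rspo1, had -0.04 and -0.08, with Star at 0.23 and Lhx9 at -0.58 (and -0.04 and -0.15 at other probes), and Amh was not above background. Nephron progenitor markers had 0.29 and 0.19, where Six2 passed the test at 1 probe (mean 1.17, limma adjusted p = 0.0387) and had 0.38 at another, and Cited1 had -0.59. The Six2 call held under 4 of 10 other settings, with adjusted p from 0.00611 to 1.00. Kidney tubule markers (3 of 6 measured) had 0.21 and 0.61, with Cdh16 at 0.75 and Lrp2 at -0.24, and Slc12a1, Umod and Slc34a1 were not above background. Fibroblast markers had 0.24 and -0.14 (Dcn 0.34, Dpt -1.05 from -0.20 and -1.90). Endothelial markers had -0.17 and -0.04 (Cdh5 0.17 from 0.36 and -0.02, Tek -0.41). Nerve and glial markers had 0.13 and -0.30. Among them Tubb3 had a mean of 0.21 and Th of -0.59, each from opposite signs on the male and the female array. The ratios were 0.77 and -0.36 for Tubb3 and 0.61 and -1.79 for Th. The part of any of these in the ratios of the 7 genes was not tested.

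**Figure D5:**
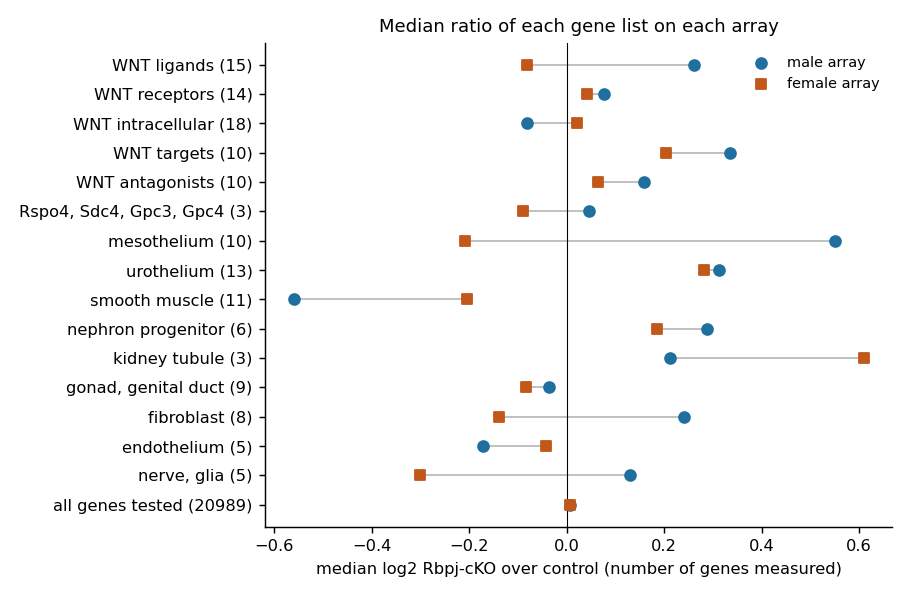
Median log2 ratio of Rbpj-cKO over control of each gene list on the male (blue circles) and the female array (orange squares), with the number of genes measured in brackets. The mesothelial list spans 0.55 to -0.21, urothelial and WNT target lists lie above 0 and the smooth muscle list below 0 on both arrays, and all genes tested lie at 0.01.

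The genes with ratios most like those of the 3 divergent members were found by distance over the 2 arrays among 15185 named genes, which is a description of 2 values per gene. Nearest to Rspo1 were Klk1b5 (2.22 and -0.39), Col6a5 (2.18 and -0.51) and Mcpt4 (1.78 and -0.41), at distances of 0.05, 0.14 and 0.40. Nearest to Rspo2 were Ltbp2 (-0.13 and -1.14), Nefm (-0.05 and -1.20) and Tlr1 (-0.21 and -1.10), all within 0.12. Nearest to Lgr5 were Esm1 (1.47 and 0.23), Gpr3 (1.39 and 0.25) and Frem1 (1.48 and 0.28), all within 0.11.

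Promoter sequences of 300 bases around the start (RefSeq, GRCm38.p6) were matched for 4 of the 8 genes, Rspo1, Lgr4, Lgr6 and Rnf43. The letters TGGGAA, the core bound by RBPJ, searched on both strands, were in the window of Lgr6 and not in those of the other 3, where 25.6% of 32851 promoters held them. The letters CTTTGA, the core bound by TCF and LEF factors, were in none of the 4, where 16.0% of promoters held them. These are matches of letters and say nothing of binding.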

How the data were processed

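Per the submitters' processing notes, Agilent Feature Extraction 10.7.3.1 made the intensity of each spot in the deposited files. Mean and background signals are raw intensities, per the file headers, processed signals are background-subtracted, detrended and dye-normalized, and log ratios are log10, red over green. The deposited series table holds a score per probe. Set against the processed signals of 39030 probes of 1 spot, it gave the signed Rbpj-cKO over control fold, after a floor of 15.8 (male) or 13.8 (female array), and 100% matched within 0.001 (log2).

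Background was corrected by normexp (offset 50), and loess was fitted within arrays, with control spots at weight 0. Control and outlier spots (200 and 274) were dropped and repeated spots averaged. Probes were kept if well above background on both arrays in either group's channel. Levels are after Aquantile between arrays. Each probe's ratios were tested in limma 3.58.1 under R 4.3.3 (lmFit, eBayes; two-sided) with 1 residual and 14.7 prior degrees of freedom, and the step was tested on simulated data. Of 39429 probes, 26412 were named through RefSeq accessions (GRCm38.p6) and 13017 kept the file's name. Both arrays share a slide and a scan. Named genes are the members, Rbpj, Axin2, the highest and lowest of each list and the 3 nearest to Rspo1, Rspo2 and Lgr5. Members and lists were chosen with earlier results of these data known.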

Additional observations from a re-analysis of the deposited data

Results flagged for a closer look

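The ratio of Rbpj-cKO over control differed in sign between the male and the female array for 3 of the 7 genes above background. The log2 ratio of Rspo1 was 2.17 for males and -0.37 for females. That of Rspo3 was 0.22 and -0.17, and that of Znrf3 was -0.051 and 0.11. The difference between the sexes was not tested for any of them, since each sex has 1 array, and sex, dye and array cannot be told apart. Opposite signs were found for 58.6% of all tested probes.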

How the results depend on the processing

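None of the 7 genes passed the limma test under any of the 10 other settings, and for 5 of them (Rspo1, Rspo2, Lgr4, Lgr5 and Rnf43) the mean kept its sign in all 10. The mean ratio of Rspo3 became -0.026 and that of Znrf3 -0.044 with Agilent processed signals and with the series value table, in which the 7 genes have the same ratios. The lowest adjusted p were 0.219 for Lgr5 and 0.367 for Rspo2, both with a normexp offset of 0, and their mean ratios lay between 0.82 and 1.00 and between -0.98 and -0.64. Rspo1 lay between 0.90 and 1.03. With 1 array left out there is no test: the ratios are then those of the other array, from -0.37 to 2.17 for Rspo1, -1.20 to -0.14 for Rspo2, -0.17 to 0.22 for Rspo3, -0.26 to -0.22 for Lgr4, 0.17 to 1.46 for Lgr5, -0.05 to 0.11 for Znrf3 and 0.29 to 0.38 for Rnf43, and 1 to 2 of the 7 genes reach 1.5-fold, against 0 on both. The count of all probes called was 42. It was 0 with processed signals, the series table, median centring or no filter, 84 with offset 0, 74 with an intensity trend, 27 with the brightest probe and 10 with the mean of probes per gene. Probes changed 1.5-fold in the same direction numbered 149, and 351 with processed signals and 317 with the series table. In opposite directions they numbered 261, and 489, 479 and, with median centring, 1198. The cause was not tested. Of the WNT list medians, median centring turned those of the intracellular genes (0.02) and of the proteoglycans (0.04) above 0 and moved that of the receptors to 0.11, and no filter moved that of the antagonists to 0.10. Loss of 1 array turned the ligand, intracellular and proteoglycan medians, and without the male array those of the targets and antagonists were 0.20 and 0.06. Settings for Rbpj and Six2 were added after seeing the data. The ratios within arrays are themselves paired, Rbpj-cKO against control of the same sex, and no further block was fitted. The 2 arrays and 1 spot per gene limit the precision, and Znrf3 and Lgr6 are close to background.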
